A study of Rattus norvegicus with 9 samples.

Results

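Genes that carry cells through mitosis were followed in synovial fibroblasts of the rat, which form the lining of joints, under 3 culture conditions. The list held 48 symbols grouped by known function. Its rule names genes by function and uses no measured value, but it was drawn up with earlier results of these data known. Of these, 47 had a row in the deposited table of 17298 genes, and all 47 reached a mean of 1 FPKM over the 9 libraries, the filter that left 11372 genes for testing. FPKM counts fragments relative to the length of the transcript and the mapped total of the library. The member means ran between 11.0 FPKM for Espl1 and 204 FPKM for Cdk1, with a median of 41.0 FPKM, so none lay near the filter. Ncaph, a condensin subunit gene, had no row under that symbol and is not analysed here.

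The cells were labelled wild type in all groups, with 3 libraries each. The co-culture group was given IL-1β, an inflammatory cytokine, and shared a transwell with dermal fibroblasts in the chamber above. The IL-1β group was given the cytokine in normal culture, and the control group was in normal culture without it. The sources used here do not give rat strain, age, cytokine dose or culture time, and co-culture without IL-1β is not analysed here. Whether replicate libraries stem from different animals or cultures is not stated, and the spread behind each p-value may thus be technical.

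In mitosis, CDK1 bound to cyclin B switches the cell into division, condensin and topoisomerase II shape the chromosomes, and kinetochores fasten them to spindle microtubules. The spindle checkpoint holds the anaphase-promoting complex back until every chromosome is attached. That complex, with its activator CDC20, then has securin and cyclin B destroyed, which frees separase to part the sister chromatids. Transcripts of these genes accumulate late in the cell cycle and are low in resting cells, so in cultured fibroblasts they are widely read as a mark of proliferation.

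Libraries of a group were close to each other, with Spearman correlations of 0.9946 to 0.9959, against 0.9584 to 0.9912 between groups. FPKM summed to 704391 to 732278 in co-culture, 718498 to 741810 with IL-1β and 679774 to 696329 in control, and sequencing depth is unknown. All 12 listed synovial fibroblast markers were above 1 FPKM, with sums of 11276 to 11460 FPKM in co-culture, 11276 to 11460 FPKM with IL-1β and 11769 to 12265 FPKM in control. Single markers differed more than these sums, Vim being at 4284 to 4402 FPKM in co-culture, 2111 to 2116 FPKM with IL-1β and 4844 to 4946 FPKM in control, and Dcn at 1185 to 1203, 3003 to 3223 and 638 to 646 FPKM in the same order of groups. Of the 12 macrophage and monocyte markers 4 reached a mean of 1 FPKM, with sums of 29.2 to 31.8 FPKM in co-culture, 40.3 to 44.5 FPKM with IL-1β and 28.8 to 30.8 FPKM in control, and their part in the results was not tested. Endothelial markers (7 of 8 with a row) summed to 0.76 to 0.81, 0.96 to 1.44 and 0.69 to 0.91 FPKM in co-culture, IL-1β and control libraries, lymphocyte markers (4 of 8) to 0.36 FPKM or less, and keratinocyte markers (4 of 8) to 2.34 to 2.73, 1.45 to 1.89 and 1.9 to 2.39 FPKM. No listed marker with a row was at 0 in all 9 libraries. The IL-1β replicate 3 library was the highest of its group for 29 of the 47 members.

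Taken as a sum, the mitosis genes were highest in co-culture, lowest with IL-1β alone and in between in control. Not every member had this order. On the log2 scale 6 had a higher mean with IL-1β than in control, and 5 had a co-culture mean not above control. Summed over the 47 members, levels were 2733, 2712 and 2723 FPKM in co-culture, 2184, 2208 and 2277 FPKM with IL-1β, and 2465, 2451 and 2525 FPKM in control. The 3 groups did not overlap in this sum. As a share of all FPKM in a library the members held 0.373% to 0.385% in co-culture, 0.301% to 0.307% with IL-1β and 0.359% to 0.363% in control. The changes were small, and 0 of the 47 members reached a log2 change of 1 in any comparison. In bulk RNA, a different number of dividing cells and a different amount of these transcripts per cell cannot be told apart.

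**Figure D1:**
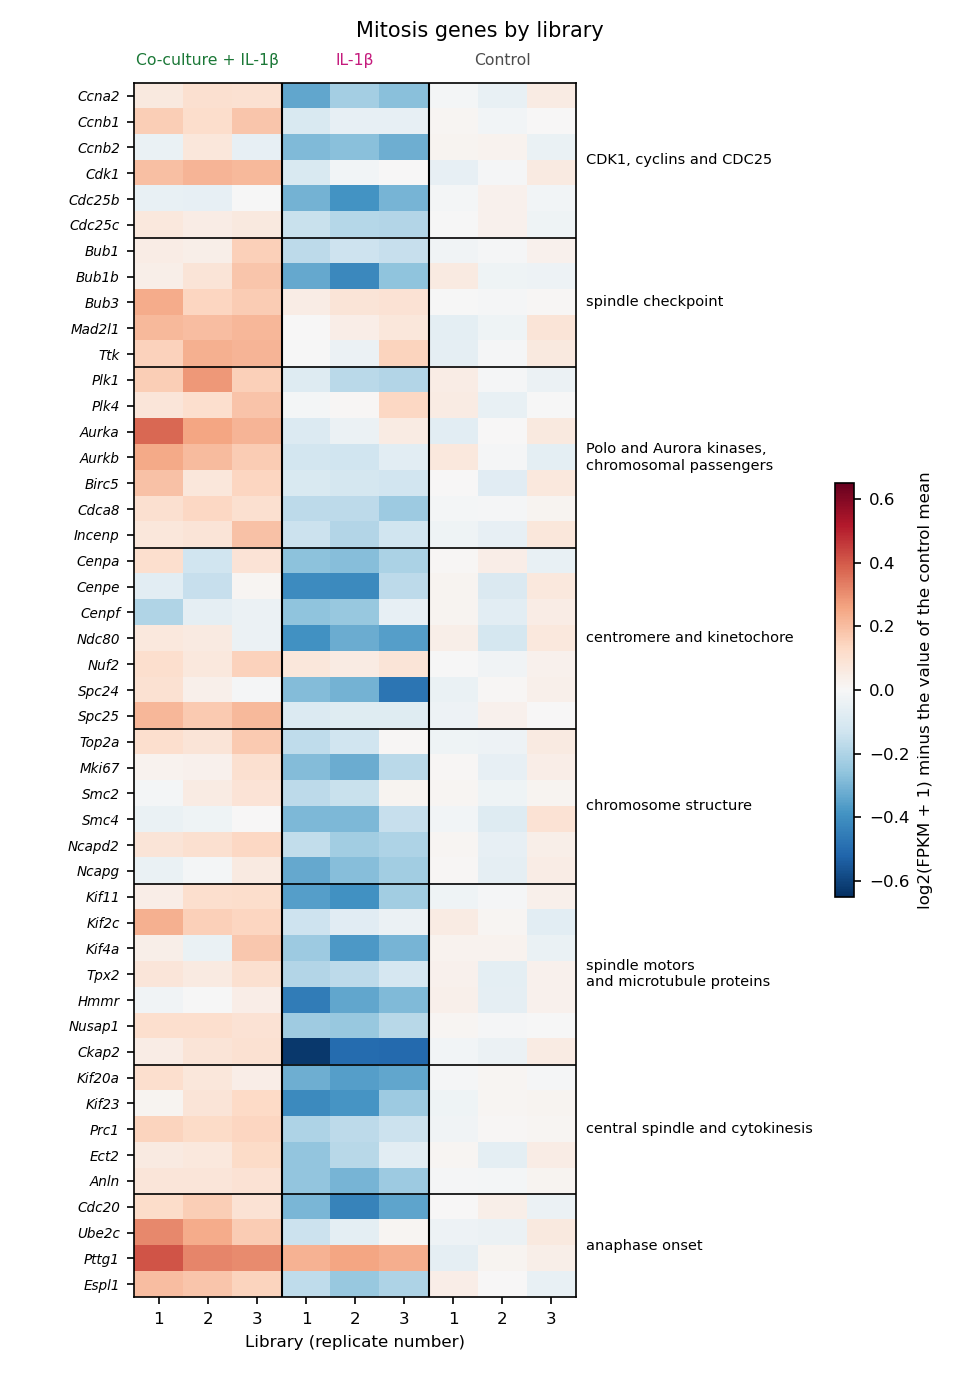
Each row is 1 of the 47 mitosis genes, grouped by role, and each column 1 library. Colour is the library's log2(FPKM + 1) minus the value of the gene's control mean. The IL-1β columns are blue for most genes, the co-culture columns are pale or red for most, and Pttg1 is red in both.

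Co-culture was first set against IL-1β alone, to see how these genes stood when dermal fibroblasts shared the medium. By limma on log2(FPKM + 1), with p adjusted by the Benjamini-Hochberg method over all 11372 genes and a threshold of 0.05, 44 of the 47 members were higher in co-culture and 0 lower. Across all genes tested 33.3% were called higher and 16.7% lower. The members' median log2 fold change was 0.28, that of all genes tested 0.06, and the members' ratios of mean FPKM ran between 1.03 for Nuf2 and 1.54 for Ckap2. At an unadjusted p under 0.05, too, 44 members were higher and 0 lower, but all genes were not counted at that threshold. In 43 members every co-culture library lay above every IL-1β library, which held for 37.3% of all genes. Plk4, Cenpf and Nuf2 did not pass.

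IL-1β was then set against control. Here 34 of the 47 members were lower and 1, Pttg1, was higher, against 31.2% of all genes called lower and 20.5% called higher, 51.7% in all. In 34 members every IL-1β library lay below every control library, and in Bub3, Nuf2 and Pttg1 above, against 35.0% and 23.3% of all genes. The median log2 fold change was -0.19 for the members and -0.04 for all genes tested. The 12 members that did not pass were Ccnb1, Cdk1, Bub3, Mad2l1, Ttk, Plk4, Aurka, Nuf2, Top2a, Smc2, Kif2c and Ube2c, with log2 fold changes between -0.10 for Smc2 and 0.08 for Bub3. Of the 35 calls 28 held in every alternative run, and those of Plk1, Aurkb, Birc5, Incenp, Cenpf, Spc25 and Ect2 did not.

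Co-culture was last set against control, which asks whether the genes stood above the unstimulated level. Of the 47 members 19 were higher and 0 lower, against 12.4% of all genes called higher and 7.91% called lower, 20.3% in all. At an unadjusted p under 0.05, 27 members were higher and 0 lower. All genes were not counted at that threshold, so the shares above are no background for it. In 30 members every co-culture library lay above every control library, which held for 22.1% of all genes. The mean on the log2 scale was higher in co-culture in 42 members, the exceptions being Ccnb2, Cdc25b, Cenpe, Cenpf and Smc4. The median log2 fold change was 0.10 for the members and 0.02 for all genes tested. Called members had ratios of mean FPKM between 1.08 for Cdca8, Nusap1 and Nuf2 and 1.27 for Pttg1. The 28 members that did not pass had log2 fold changes between -0.10 for Cenpf and 0.12 for Top2a, Plk4 and Incenp. Any 2 of the 3 comparisons share a group of libraries, so they are not independent of each other.

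The share of calls that went up depended on scaling. In co-culture against IL-1β, 66.6% of all calls were higher as deposited, 50.4% with median-of-ratios scaling and 58.3% with quantile normalization. In IL-1β against control these shares were 39.7%, 51.4% and 41.7%, and in co-culture against control 61.0%, 53.9% and 46.4%. These are shares of the calls and not of the genes tested. Of the members, 40 were higher in co-culture than with IL-1β under median-of-ratios scaling and 41 under quantile normalization. Of all 11372 genes, 2702 and 3199 were. In IL-1β against control 27 and 37 members were lower, against 2799 and 3448 of all genes. In co-culture against control 15 and 14 members were higher, against 1190 and 1008 of all genes.

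**Figure D2:**
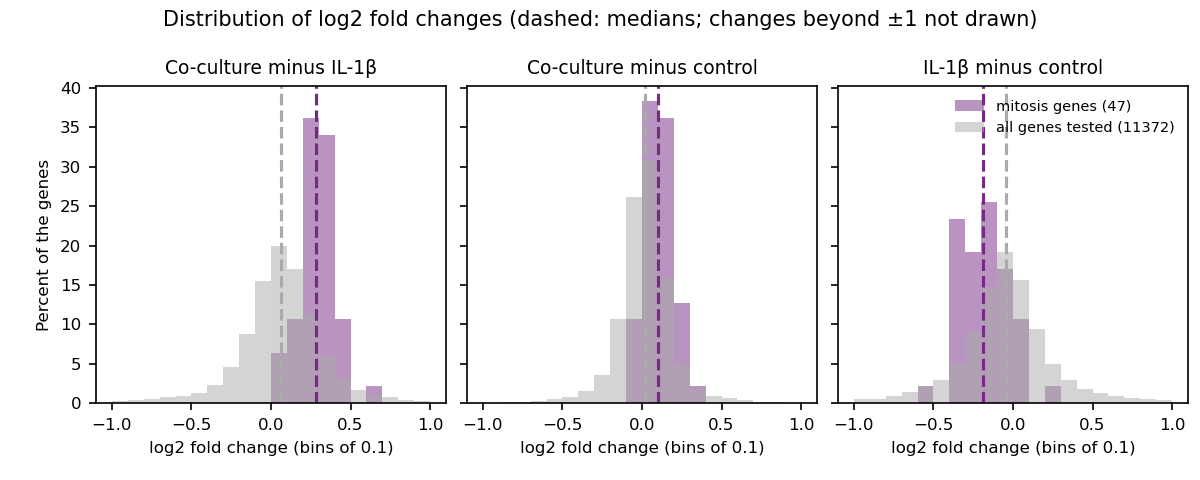
The share of genes in each bin of log2 fold change is drawn for the 47 mitosis genes and for all 11372 genes tested, with dashed lines at the medians. The mitosis genes lie to the right of all genes in co-culture minus IL-1β (medians 0.28 and 0.06), slightly to the right in co-culture minus control (0.10 and 0.02) and to the left in IL-1β minus control (-0.19 and -0.04).

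The calls of the 3 comparisons sorted the members into a few patterns. The most common, in 24 members (51.1%), was lower with IL-1β than in control, higher in co-culture than with IL-1β, and not past the threshold between co-culture and control. This pattern held for 18.3% of all genes. A further 9 members (19.1%) were lower with IL-1β and higher in co-culture than in both other groups, a pattern of 1.62% of all genes: Plk1, Aurkb, Birc5, Cdca8, Spc25, Nusap1, Prc1, Cdc20 and Espl1. In 8 members (17.0%, against 2.66% of all genes) IL-1β did not differ past the threshold while co-culture was above both, as in Ccnb1, Cdk1, Bub3, Mad2l1, Ttk, Aurka, Kif2c and Ube2c. After quantile normalization Ccnb1, Cdk1 and Ube2c were called lower with IL-1β than in control (limma adjusted p = 0.031, 0.016 and 0.023). Bub3 was called higher with IL-1β after median-of-ratios scaling (adjusted p = 0.0045). Pttg1 was the 1 member higher with IL-1β and higher again in co-culture, which 0.237% of all genes were. Of the 5 left, Top2a and Smc2 were called in co-culture against IL-1β alone (4.91% of all genes), Nuf2 in co-culture against control alone (0.8%), Cenpf in IL-1β against control alone (4.26%), and Plk4 in none (37.7%). Top2a was called lower with IL-1β than in control after quantile normalization (limma adjusted p = 0.045). Without IL-1β replicate 3, Top2a and Smc2 were both called lower with IL-1β than in control (limma adjusted p = 0.013 and 0.0088).

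Counted by the stricter rule, past the threshold in both comparisons and with the lowest co-culture library above the highest of the other 6, 18 of the 47 members (38.3%) stood above both other groups in co-culture, against 4.44% of all genes. The count was 12 after either scaling, 15 without the filter on low values and 10 without co-culture replicate 1. The share of 4.44% belongs to the main fit, and all genes were not counted by this rule in the alternatives. The calls against control that gave way under at least 1 of the alternatives were those of Ttk, Birc5, Cdca8, Nuf2, Kif2c, Nusap1, Cdc20 and Espl1, whereas those of 11 members held in every alternative run: Ccnb1, Cdk1, Bub3, Mad2l1, Plk1, Aurka, Aurkb, Spc25, Prc1, Ube2c and Pttg1.

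**Figure D3:**
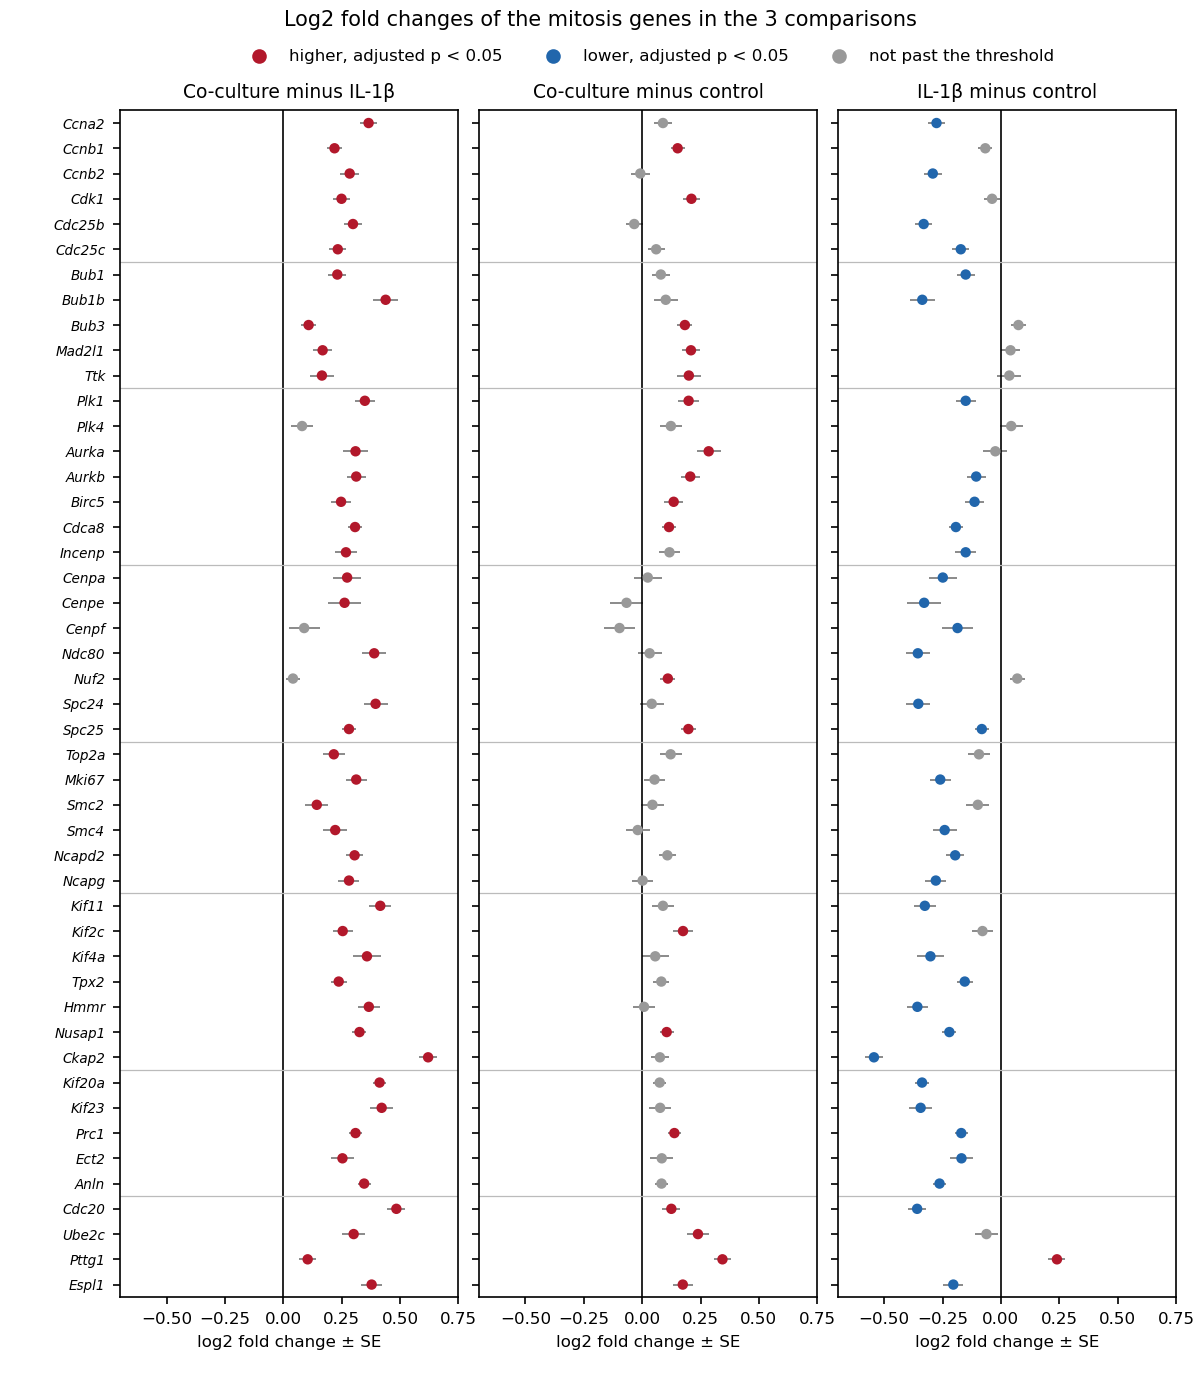
Log2 fold changes on the log2(FPKM + 1) scale with their standard errors are drawn for each mitosis gene, in rows grouped by role, for the 3 comparisons. Red points are higher and blue points lower at an adjusted p under 0.05, and grey points did not pass. In co-culture minus IL-1β 44 of 47 points are red, in co-culture minus control 19, and in IL-1β minus control 34 are blue and 1 is red.

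Among the genes of CDK1 and its regulators, all 6 were higher in co-culture than with IL-1β, 4 were lower with IL-1β than in control, and 2 were higher in co-culture than in control. The shares of all genes with these calls were 33.3%, 31.2% and 12.4%. Cdk1 (gene ID 54237), the kinase that drives entry into mitosis, was at 224, 229 and 227 FPKM in co-culture, 183, 193 and 196 FPKM with IL-1β, and 189, 195 and 204 FPKM in control. The co-culture libraries lay above the other 6, which overlapped. The log2 fold change of Cdk1 was 0.25 ± 0.04 (SE) against IL-1β (adjusted p = 0.00014), 0.21 ± 0.04 against control (adjusted p = 0.0016) and -0.04 ± 0.04 for IL-1β against control (adjusted p = 0.4, and 0.016 after quantile normalization).

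Ccna2 (gene ID 114494), which encodes cyclin A, was at 113, 117 and 116 FPKM in co-culture, 85.6, 93.1 and 89.6 FPKM with IL-1β, and 108, 105 and 113 FPKM in control. IL-1β lay below both other groups, and co-culture and control libraries stood next to each other. The log2 fold change was 0.37 ± 0.04 for co-culture against IL-1β (adjusted p = 1e-05) and 0.09 ± 0.04 against control (adjusted p = 0.12). The B-type cyclins had different calls, and the difference between them was not tested. Ccnb1 averaged 61.2 ± 1.48 FPKM in co-culture, 52.4 ± 0.97 FPKM with IL-1β and 54.9 ± 0.55 FPKM in control (SD, n = 3), and was called against both. Ccnb2 averaged 45.4 ± 2.26, 37.1 ± 0.61 and 45.6 ± 1.22 FPKM in the same order of groups, and its co-culture and control libraries overlapped. Cdc25b and Cdc25c, phosphatases that remove the brake from CDK1, were called higher than with IL-1β, with log2 fold changes of 0.30 ± 0.04 and 0.23 ± 0.04, and did not pass against control. Co-culture and control libraries overlapped for Cdc25b, and the co-culture libraries of Cdc25c lay above the control ones.

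The spindle checkpoint genes were all higher in co-culture than with IL-1β, but only Bub1 and Bub1b were lower with IL-1β than in control. Of all genes, 33.3% and 31.2% had these calls. Bub1b (gene ID 171576), which encodes the checkpoint protein BubR1, was at 23.6, 24.4 and 26.2 FPKM in co-culture, 18.1, 16.9 and 19.0 FPKM with IL-1β, and 24.0, 22.5 and 22.5 FPKM in control. Its IL-1β libraries stood apart below the rest, with a log2 fold change of 0.44 ± 0.05 for co-culture against IL-1β (adjusted p = 3.4e-05). Mad2l1 (gene ID 297176), the checkpoint protein that captures CDC20, was at 58.4, 58.0 and 58.6 FPKM in co-culture, 50.5, 51.8 and 53.1 FPKM with IL-1β, and 48.1, 49.4 and 53.5 FPKM in control. Here the co-culture libraries were high and the other 6 overlapped, and the log2 fold change was 0.17 ± 0.04 against IL-1β (adjusted p = 0.0045) and 0.21 ± 0.04 against control (adjusted p = 0.0032). In Bub3, by contrast, every IL-1β library lay above every control library (limma adjusted p = 0.071, and 0.0045 after median-of-ratios scaling). Group means of Bub3 and the kinase gene Ttk had the order of Mad2l1, with ratios to IL-1β of 1.08 and 1.12 and to control of 1.14 and 1.15. Their calls against IL-1β were lost after median-of-ratios scaling (adjusted p = 0.3 for Bub3 and 0.13 for Ttk), that of Ttk also after quantile normalization (adjusted p = 0.087), that of Bub3 also without co-culture replicate 1 (adjusted p = 0.07) or IL-1β replicate 1 (adjusted p = 0.052), and that of Ttk without co-culture replicate 2 or 3 or IL-1β replicate 1 or 2 (adjusted p between 0.061 and 0.087).

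Of the Polo and Aurora kinases and their partners, 6 of 7 were higher in co-culture than with IL-1β and 5 of 7 higher than in control. Of all genes, 33.3% and 12.4% had these calls. Aurka (gene ID 261730), the kinase of the spindle poles, was at 54.6, 50.4 and 49.1 FPKM in co-culture, 39.3, 40.8 and 43.7 FPKM with IL-1β, and 39.9, 42.0 and 44.0 FPKM in control. The control and IL-1β libraries spanned nearly the same range and every co-culture library lay above them, with log2 fold changes of 0.31 ± 0.05 against IL-1β (adjusted p = 0.00046) and 0.28 ± 0.05 against control (adjusted p = 0.0025). Plk1 (gene ID 25515), the Polo kinase that acts throughout mitosis, was at 81.0, 88.3 and 80.9 FPKM in co-culture, 68.3, 64.0 and 63.3 FPKM with IL-1β, and 74.9, 72.1 and 70.4 FPKM in control, 3 groups without overlap. The chromosomal passenger complex corrects faulty attachments. Its kinase gene Aurkb averaged 56.2 ± 1.61 FPKM in co-culture, 45.1 ± 1.02 FPKM with IL-1β and 48.6 ± 2.36 FPKM in control, and its other subunits Birc5 (survivin), Cdca8 (borealin) and Incenp had ratios to IL-1β of 1.19 to 1.24. Plk4, which sets off centriole duplication, averaged 27.4 ± 1.09, 25.9 ± 1.5 and 25.1 ± 0.91 FPKM in the same order and passed in no comparison (adjusted p = 0.2, 0.1 and 0.48), except against IL-1β without IL-1β replicate 3 (adjusted p = 0.048). The lower values of Plk1, Aurkb, Birc5 and Incenp with IL-1β than in control were past the threshold as deposited (adjusted p between 0.013 and 0.044) but not after median-of-ratios scaling (adjusted p between 0.087 and 0.27). Those of Aurkb and Birc5 were each lost in 9 alternatives, that of Incenp in 3 and that of Plk1 in 2, libraries left out one at a time among them.

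Kinetochore genes were higher in co-culture than with IL-1β in 5 of 7 and lower with IL-1β than in control in 6 of 7. Of all genes, 33.3% and 31.2% had these calls. In co-culture against control 2 of the 7 were higher, against 12.4% of all genes. Subunits of a single complex had different calls. The NDC80 complex grips microtubules and has 4 subunits, all members here. Ndc80 (gene ID 301701) was at 27.7, 27.5 and 25.7 FPKM in co-culture, 19.9, 20.9 and 20.3 FPKM with IL-1β, and 27.1, 24.3 and 27.7 FPKM in control. Spc24 averaged 39.4 ± 1.48, 29.8 ± 2.19 and 38.3 ± 1.11 FPKM in that order. Both had IL-1β libraries apart below the others, with log2 fold changes for IL-1β against control of -0.36 ± 0.05 and -0.35 ± 0.05 (adjusted p = 0.00013 each). Spc25 averaged 45.8 ± 0.83 FPKM in co-culture, 37.5 ± 0.13 FPKM with IL-1β and 39.8 ± 0.83 FPKM in control, and its log2 fold change with IL-1β was -0.08 ± 0.03 (adjusted p = 0.042), a call lost in 11 of the 17 alternatives (adjusted p between 0.052 and 0.42). Nuf2 (gene ID 304951) was at 55.9, 54.3 and 57.6 FPKM in co-culture, 54.4, 53.7 and 54.8 FPKM with IL-1β, and 51.6, 50.8 and 52.7 FPKM in control. Its IL-1β libraries lay above the control ones and overlapped the co-culture ones, with log2 fold changes of 0.07 ± 0.03 for IL-1β against control (adjusted p = 0.087, and 0.0065 after median-of-ratios scaling) and 0.04 ± 0.03 for co-culture against IL-1β (adjusted p = 0.31). Its call in co-culture against control (log2 fold change 0.11 ± 0.03, adjusted p = 0.03) was lost in 7 alternatives, both scalings among them (adjusted p = 0.051 and 0.15). The difference between these subunits was not tested. Cenpa, the histone variant that marks the centromere, and the kinetochore motor gene Cenpe followed Ndc80, with ratios of co-culture to IL-1β of 1.22 and 1.21. Cenpf, a large kinetochore protein gene, was at 10.7, 11.9 and 12.1 FPKM in co-culture, 10.2, 10.3 and 12.0 FPKM with IL-1β, and 12.6, 11.8 and 12.9 FPKM in control, and every pair of groups overlapped. Its lower value with IL-1β than in control (log2 fold change -0.19 ± 0.07, adjusted p = 0.034) was lost in 7 alternatives (adjusted p up to 0.12).

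The 6 genes of chromosome structure were all higher in co-culture than with IL-1β, and 0 of the 6 passed against control by limma. Of all genes, 33.3% were called higher in the first comparison and 20.3% in either direction in the second. At an unadjusted p under 0.05, 2 of the 6, Top2a and Ncapd2, were higher in co-culture than in control. All genes were not counted at that threshold. Top2a passed against control without IL-1β replicate 3 (adjusted p = 0.04) and in a fit of the 2 groups alone (adjusted p = 0.05). Mki67 (gene ID 291234), which encodes the proliferation antigen Ki-67 that coats mitotic chromosomes, was at 40.7, 40.8 and 43.1 FPKM in co-culture, 32.8, 31.8 and 35.3 FPKM with IL-1β, and 40.3, 38.6 and 41.2 FPKM in control. The co-culture and control libraries overlapped and the IL-1β libraries lay below both. The log2 fold change was 0.31 ± 0.04 against IL-1β (adjusted p = 0.00013) and 0.05 ± 0.04 against control (adjusted p = 0.45). Top2a, the topoisomerase that untangles sister chromatids, averaged 70.1 ± 2.31 FPKM in co-culture, 60.3 ± 3.98 FPKM with IL-1β and 64.4 ± 2.24 FPKM in control. Among the condensin genes Smc2, Smc4, Ncapd2 and Ncapg, the ratios of co-culture to IL-1β were 1.11, 1.17, 1.25 and 1.23. The call of Smc2 was lost in 9 of the alternatives, among them both scalings (adjusted p = 0.2 and 0.081).

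Spindle motors and microtubule proteins held the member with the widest range. Ckap2 (gene ID 306575), a spindle-associated microtubule protein, was at 85.4, 87.5 and 88.5 FPKM in co-culture, 53.1, 58.2 and 57.9 FPKM with IL-1β, and 81.7, 80.5 and 85.7 FPKM in control. Its IL-1β libraries were far below the other 6, and the co-culture and control libraries touched. The log2 fold change was 0.62 ± 0.04 for co-culture against IL-1β (adjusted p = 2.1e-07), 0.08 ± 0.04 against control (adjusted p = 0.21) and -0.54 ± 0.04 for IL-1β against control (adjusted p = 3.8e-07), the largest of the members in both comparisons with the IL-1β group. Kif11, the motor that pushes spindle poles apart, and Hmmr, a spindle assembly protein gene, had log2 fold changes of 0.41 ± 0.05 and 0.37 ± 0.05 against IL-1β and of 0.09 ± 0.05 and 0.01 ± 0.05 against control. Kif4a, a chromosome motor gene, had ratios of 1.3 and 1.04 to the same groups. Kif2c, which takes microtubules apart at kinetochores, averaged 37.0 ± 1.29 FPKM in co-culture, 30.9 ± 1.09 FPKM with IL-1β and 32.7 ± 1.46 FPKM in control and was called against both. Its call against control was lost without co-culture replicate 1 (adjusted p = 0.065) or control replicate 3 (adjusted p = 0.056). Tpx2, the activator of Aurora A, and Nusap1 had ratios of co-culture to IL-1β of 1.18 and 1.26.

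All 5 genes of the central spindle and cytokinesis were lower with IL-1β than in control and higher in co-culture than with IL-1β. Of all genes, 31.2% and 33.3% had these calls, and 12.4% were higher in co-culture than in control. Kif20a (gene ID 361308), a motor of the central spindle, was at 89.1, 86.7 and 84.9 FPKM in co-culture, 66.0, 64.1 and 65.0 FPKM with IL-1β, and 82.1, 83.1 and 82.1 FPKM in control. The 3 groups did not overlap, and the log2 fold change was 0.41 ± 0.03 against IL-1β (adjusted p = 4e-07) and 0.07 ± 0.03 against control (adjusted p = 0.094). Prc1, which bundles the microtubules of the central spindle, averaged 114.9 ± 0.86 FPKM in co-culture, 92.6 ± 1.96 FPKM with IL-1β and 104.3 ± 1.3 FPKM in control, and was the 1 gene of this group called against control (adjusted p = 0.0041). Kif23, Ect2 and Anln, a motor, a RhoA activator and a scaffold of the contractile ring, had ratios of co-culture to IL-1β of 1.35, 1.2 and 1.27 and of co-culture to control of 1.06 each.

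The 4 genes of anaphase onset, which bring on or restrain the parting of chromatids, were higher in co-culture than in both other groups. By the stricter rule this held for 4.44% of all genes. Cdc20 (gene ID 64515), activator of the anaphase-promoting complex, was at 131, 135 and 129 FPKM in co-culture, 97.8, 88.8 and 94.6 FPKM with IL-1β, and 121, 123 and 117 FPKM in control. The groups did not overlap. Its log2 fold change was 0.48 ± 0.04 against IL-1β (adjusted p = 1.2e-06) and 0.13 ± 0.04 against control (adjusted p = 0.041), the call against control being lost under 12 of the alternatives (adjusted p up to 0.15). Ube2c (gene ID 296368), the ubiquitin-conjugating enzyme of that complex, was at 201, 191 and 182 FPKM in co-culture, 147, 155 and 163 FPKM with IL-1β, and 158, 158 and 169 FPKM in control, with co-culture above 6 overlapping libraries. Espl1, the gene of separase, averaged 12.5 ± 0.25 FPKM in co-culture, 9.42 ± 0.3 FPKM with IL-1β and 11.0 ± 0.37 FPKM in control.

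Pttg1 (gene ID 64193), the gene of securin, which holds separase inactive until anaphase, had its own order. It was at 105, 98.5 and 97.8 FPKM in co-culture, 92.5, 94.4 and 93.2 FPKM with IL-1β, and 75.8, 80.0 and 81.1 FPKM in control. All 3 groups were apart, with control the lowest. The log2 fold change was 0.34 ± 0.04 for co-culture against control (adjusted p = 5.2e-05) and 0.24 ± 0.04 for IL-1β against control (adjusted p = 0.00019), both held in every alternative run. Against IL-1β the log2 fold change in co-culture was 0.10 ± 0.04 (adjusted p = 0.034), a call lost in 9 alternatives, including median-of-ratios scaling (adjusted p = 0.42), co-culture replicate 1 left out (adjusted p = 0.14) and any 1 of the IL-1β libraries left out (adjusted p between 0.055 and 0.082).

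**Figure D4:**
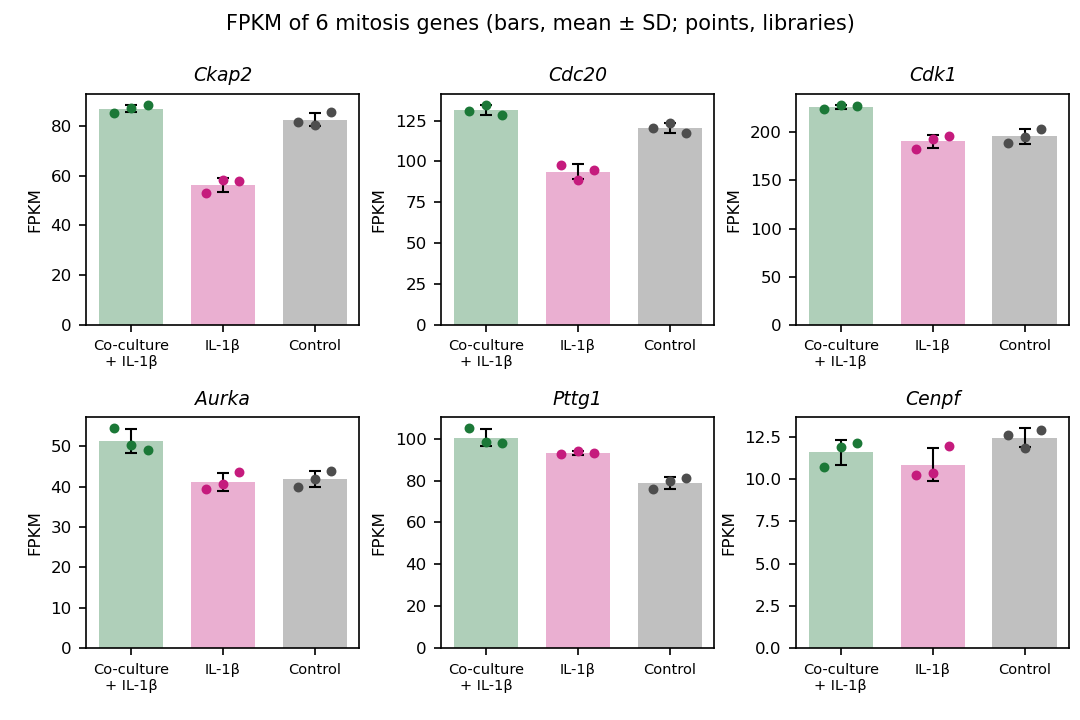
FPKM of 6 mitosis genes is drawn by group, with bars for the mean, error bars for the SD of 3 libraries and points for the libraries. Ckap2 and Cdc20 are lowest with IL-1β, Cdk1 and Aurka are high in co-culture alone, Pttg1 is lowest in control, and the groups overlap for Cenpf.

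Promoters of the members were read next, because many genes of late cell cycle phases share short DNA elements near their start. These are the cell cycle genes homology region, CHR, bound by the DREAM and MuvB complexes, and the CCAAT box, bound by NF-Y. RefSeq promoters of the rat assembly GRCr8, 250 bases before to 50 after the gene start, were found for 42 of the 47 members by gene identifier, and the first entry was used where a gene had several. Both strands were searched for TTTGAA and TTCGAA, as CHR, and for CCAAT. A CHR motif was present in 34 of 42 member promoters (81.0%), against 13.5% of 9087 promoters of genes tested and 19.5% of all 27457 genes in the table. CCAAT was present in 33 (78.6%), against 38.7% and 37.7%, and in 2 or more copies in 23 (54.8%), against 14.4% and 11.5%. Both were present in 28 (66.7%), against 5.67% and 7.83%. The median position of the first base was -44.5 for CHR and -101 for CCAAT, counted from the gene start.

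Among members that stood above both other groups in co-culture, 13 of 16 promoters (81.2%) held a CHR motif, and among the other members 21 of 26 (80.8%). The 8 members with none in this window were Aurka, Ccnb1, Kif2c, Bub1, Cenpe, Kif11, Kif20a and Spc24. A match is a run of letters and not a shown binding site.

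The window between 170 bases before the gene start and 30 after it is given for 6 members. Among members with a promoter entry, they have the smallest p of their role group in co-culture against IL-1β, taken from the 6 role groups in which that p was smallest. Capitals mark the CHR letters TTTGAA or their reverse complement, and CCAAT or its reverse complement ATTGG, wherever they lie whole in the window. In Cdca8 the CHR and a reversed CCAAT overlap. Kif20a, chosen for its p, has CCAAT boxes and no CHR letters, and Bub1b has a CHR at the start and no CCAAT.
Ckap2 (chr16:76541944-76542143, plus strand): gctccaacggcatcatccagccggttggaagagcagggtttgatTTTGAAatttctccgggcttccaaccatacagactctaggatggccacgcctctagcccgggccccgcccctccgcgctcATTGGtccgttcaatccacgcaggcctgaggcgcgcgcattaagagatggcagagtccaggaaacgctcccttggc
Kif20a (chr18:26504252-26504451, plus strand): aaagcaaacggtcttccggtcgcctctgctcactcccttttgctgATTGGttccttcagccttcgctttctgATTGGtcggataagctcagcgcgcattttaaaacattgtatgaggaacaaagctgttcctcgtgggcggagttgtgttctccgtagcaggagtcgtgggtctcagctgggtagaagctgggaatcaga
Cdc20 (chr5:137255770-137255969, minus strand): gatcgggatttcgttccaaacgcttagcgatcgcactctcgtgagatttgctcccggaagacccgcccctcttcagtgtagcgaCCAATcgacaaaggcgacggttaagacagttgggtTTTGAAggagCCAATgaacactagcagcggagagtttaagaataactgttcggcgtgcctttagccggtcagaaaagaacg
Cdca8 (chr5:142483170-142483369, minus strand): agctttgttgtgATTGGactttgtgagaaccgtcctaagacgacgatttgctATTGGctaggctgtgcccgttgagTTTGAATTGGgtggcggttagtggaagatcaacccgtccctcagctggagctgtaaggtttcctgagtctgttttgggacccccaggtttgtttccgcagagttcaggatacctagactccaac
Spc25 (chr3:74396689-74396888, minus strand): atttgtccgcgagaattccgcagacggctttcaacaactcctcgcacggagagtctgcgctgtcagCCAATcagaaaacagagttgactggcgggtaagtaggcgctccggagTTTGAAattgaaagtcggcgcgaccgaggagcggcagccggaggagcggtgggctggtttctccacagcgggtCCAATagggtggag
Bub1b (chr3:126016897-126017096, plus strand): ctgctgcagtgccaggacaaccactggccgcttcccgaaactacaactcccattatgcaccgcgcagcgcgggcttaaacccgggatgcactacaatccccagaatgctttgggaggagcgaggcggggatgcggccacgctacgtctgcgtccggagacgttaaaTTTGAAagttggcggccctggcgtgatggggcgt

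**Figure D5:**
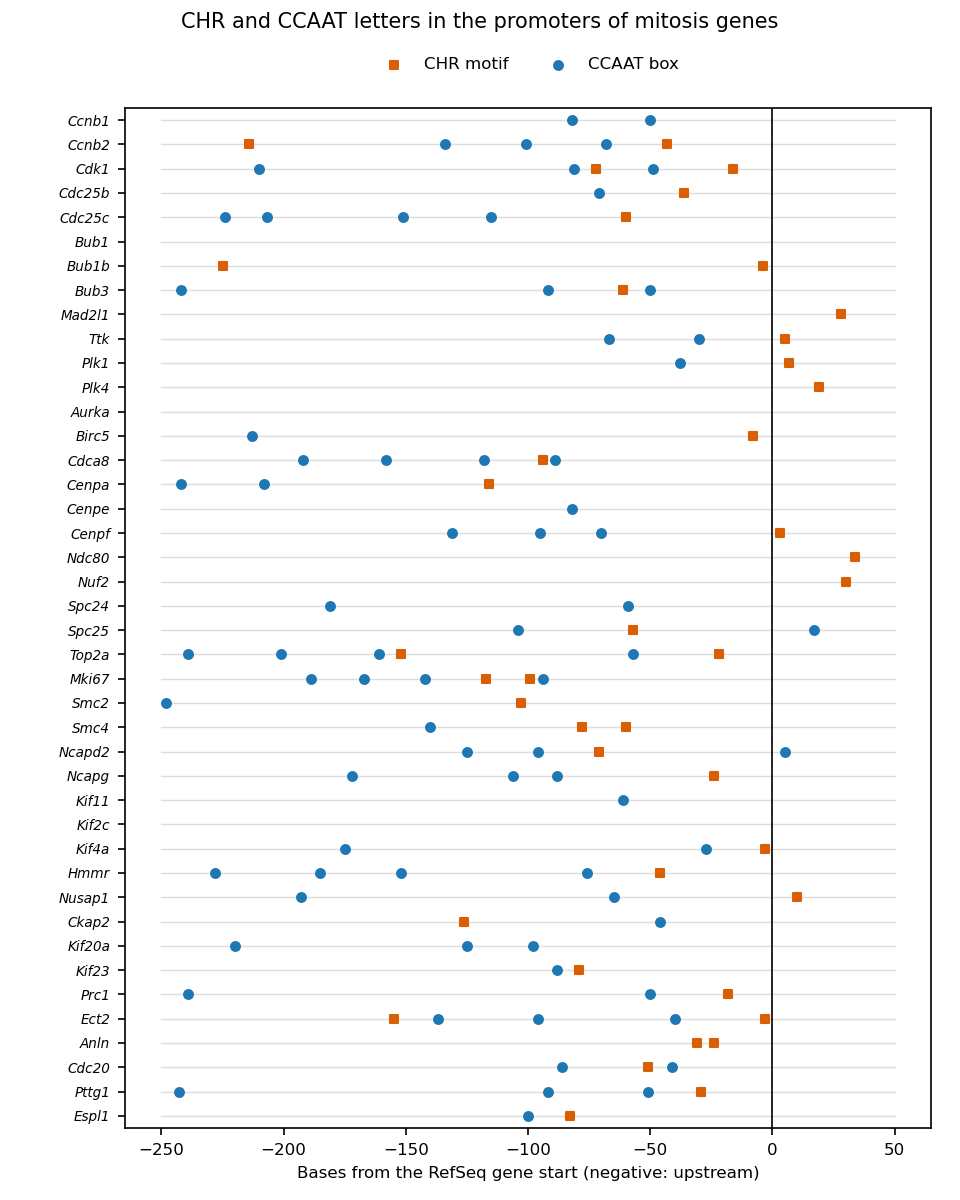
Each row is the promoter of 1 of 42 mitosis genes, and the horizontal axis is the distance in bases from the RefSeq gene start. Squares mark the first base of a CHR motif and circles that of a CCAAT box. CHR letters have a median position of -44.5 and CCAAT boxes of -101, and Bub1, Aurka and Kif2c have neither.

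Of 23 genes listed as transcription factors of cell cycle genes, 10 were higher and 2 lower in co-culture than with IL-1β. The shares of all genes were 33.3% and 16.7%. In co-culture against control 4 were higher and 0 lower, against 12.4% and 7.91% of all genes. In IL-1β against control 7 were higher and 3 lower, against 20.5% and 31.2% of all genes. Foxm1, a transcription factor of late cell cycle genes, averaged 17.77 ± 0.35 FPKM in co-culture, 13.97 ± 0.29 FPKM with IL-1β and 15.97 ± 1.33 FPKM in control (adjusted p = 0.00041 against IL-1β and 0.079 against control). Mybl2, the B-Myb gene, averaged 28.4 ± 1.48 FPKM in co-culture, 26.2 ± 0.78 FPKM with IL-1β and 22.2 ± 0.24 FPKM in control, an order shared with Pttg1. Its log2 fold change was 0.34 ± 0.04 in co-culture against control (adjusted p = 0.00018) and 0.23 ± 0.04 with IL-1β against control (adjusted p = 0.00084), and its difference from IL-1β in co-culture (adjusted p = 0.044) was lost in 13 alternatives (adjusted p up to 0.4).

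Mitosis genes outside the members were counted as well. Of 68 tested, 59 were higher and 1 lower in co-culture than with IL-1β, 24 higher and 0 lower than in control, and 3 higher and 38 lower with IL-1β than in control. Over all genes, the shares called higher and lower were 33.3% and 16.7%, 12.4% and 7.91%, and 20.5% and 31.2% in these comparisons. The 1 that was lower in co-culture was Zwint, a kinetochore gene, at 36.5 ± 0.93 FPKM in co-culture, 54.2 ± 2.61 FPKM with IL-1β and 30.45 ± 1.78 FPKM in control, with a log2 fold change of 0.81 ± 0.05 for IL-1β against control (adjusted p = 5.6e-08). Genes of DNA replication, the step before mitosis, were higher in co-culture than with IL-1β in 36 of 36 and higher than in control in 29, with medians of 0.37 and 0.20 on the log2 scale, and were lower with IL-1β than in control in 25 and higher in 1.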

How the data were processed

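Messenger RNA of rat synovial fibroblasts was sequenced in 9 libraries, 3 per group, and grouped by the sample titles. The table the authors deposited holds FPKM per gene and library, with 2 decimals. The submitters' processing notes name the build GRCm38, a mouse build, while the identifiers are rat. Names of the aligner, quantifier and annotation were not given in the sources used here, and how the reference used affects each gene's level is unknown. FPKM is relative within a library, and depth is unknown, so precision rests on 3 libraries.

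Genes with a mean of at least 1 FPKM were kept (11372 of 17298), and log2(FPKM + 1) was fitted with limma 3.58.1 in R 4.3.3, 1 coefficient per group over 9 libraries, with trend and robust settings. P-values are two-sided, adjusted by the Benjamini-Hochberg method, with a threshold of 0.05. Fold changes on this scale slightly understate low genes. The fit was tested on simulated data. Alternatives were a pseudocount of 0.1, no filter, a filter of 5 FPKM, median-of-ratios scaling, quantile normalization, fits of 2 groups, limma without trend, a replicate block and each library left out.

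All members are reported. Other genes were to be named as the up to 3 smallest p per list in co-culture against IL-1β, with Foxm1, Mybl2, Cdkn1a and Ccnd1. Only some of these are described, and Rad21 and Nipbl are named outside this rule. The members and lists were chosen with earlier results of these data known. Promoter sequences are from RefSeq.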

Additional observations from a re-analysis of the deposited data

How the results depend on the processing

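The number of members higher in co-culture than with IL-1β was 40 to 44 in the 17 alternatives run, with 0 lower in each, and 40 of the 44 calls held in every alternative run. The number higher in co-culture than in control was 19, 14 to 20 in the alternatives that kept all libraries and 12 to 19 with 1 library left out, the lowest being without co-culture replicate 1. The number lower with IL-1β than in control was 34, and 27 to 37 in the alternatives, 29 to 34 with 1 library left out. The number higher with IL-1β than in control was 1, but 3 after median-of-ratios scaling (Bub3 and Nuf2 beside Pttg1), and 1 to 2 with 1 library left out. The number above both other groups in co-culture was 18, and 10 to 17 with 1 library left out. For all genes this number was not counted in any alternative. Over all genes tested, the counts with 1 library left out were 3316 to 3765 higher and 1668 to 1895 lower in co-culture against IL-1β, 1004 to 1421 and 647 to 888 in co-culture against control, and 2075 to 2304 and 3147 to 3505 in IL-1β against control.

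Replicate numbers are shared by the titles, but the labels do not tie them to a shared source, and the correlations of same-numbered libraries' deviations from the group means were weak, -0.046 to 0.189 over 9 pairs with 1 above 0.1, so the numbers were not taken as pairs. The correlations of differently numbered libraries ran between -0.221 and 0.133. Of the 9 libraries 6 correlated best with one of their own number, and whether they share a component was not tested. With the replicate number as a block, 43, 20 and 34 members were higher in co-culture than with IL-1β, higher in co-culture than in control and lower with IL-1β than in control, and 17 stood above both other groups. The block gave Top2a a call in co-culture against control (adjusted p = 0.025) and in IL-1β against control (adjusted p = 0.03), and Incenp one in co-culture against control (adjusted p = 0.049). Over all genes the block gave 3795 higher and 1913 lower, 1368 and 859, and 2329 and 3529 in the same comparisons. Signs were not compared for genes past no threshold.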

Other observations

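Of 12 genes of cohesin and its loaders, which hold sister chromatids together, 4 were higher and 5 lower in co-culture than with IL-1β. Against control in co-culture, 0 passed at the adjusted threshold by limma (at an unadjusted p under 0.05, Rad21 was higher and Nipbl lower). Of all genes, 33.3% were called higher and 16.7% lower in the first comparison, and 20.3% in either direction in the second. Smc3, a cohesin ring subunit gene, averaged 32.0 ± 1.4 FPKM in co-culture, 27.4 ± 1.46 FPKM with IL-1β and 32.55 ± 0.6 FPKM in control. Stag2, another subunit gene, averaged 23.8 ± 0.89, 26.7 ± 1.34 and 24.6 ± 0.6 FPKM in the same order of groups. Esco2, an acetyltransferase gene that secures cohesin in S phase, averaged 18.3 ± 0.39, 14.2 ± 1.09 and 17.8 ± 0.89 FPKM.

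Genes of the anaphase-promoting complex were higher in co-culture than with IL-1β in 10 of 16 and lower in 0, against 33.3% and 16.7% of all genes. In co-culture against control 1 was higher and 1 lower, against 12.4% and 7.91% of all genes. Cdc16 averaged 47.4 ± 0.86 FPKM in co-culture, 38.8 ± 1.37 FPKM with IL-1β and 49.9 ± 0.84 FPKM in control. Among 9 genes that brake entry into mitosis, 6 were higher in co-culture than with IL-1β, against 33.3% of all genes. Lower with IL-1β than in control were 3 of these brakes, against 31.2% of all genes. Between co-culture and control, 1 brake was higher in co-culture and 1 lower, against 12.4% and 7.91% of all genes. Gadd45a, a stress-induced gene of this kind, averaged 38.1 ± 0.59 FPKM in co-culture, 27.4 ± 2.05 FPKM with IL-1β and 52.2 ± 1.15 FPKM in control, and was lower in co-culture than in control (log2 fold change -0.45 ± 0.05, limma adjusted p = 5.8e-05).

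Of 14 genes of G1 cyclins, their kinases and kinase inhibitors, 9 were higher and 1 lower in co-culture than with IL-1β. With IL-1β 2 were higher and 7 lower than in control. The shares of all genes were 33.3% and 16.7% in the first comparison and 20.5% and 31.2% in the second. Between co-culture and control, 4 of the 14 were higher in co-culture and 3 lower, against 12.4% and 7.91% of all genes. Cdk4 averaged 219 ± 5.67 FPKM in co-culture, 161 ± 4.73 FPKM with IL-1β and 210 ± 2.83 FPKM in control. The inhibitor gene Cdkn1a averaged 43.0 ± 2.56, 39.9 ± 1.62 and 41.2 ± 0.95 FPKM in that order and passed in none of the 3 comparisons (limma adjusted p = 0.08, 0.41 and 0.43), but passed in co-culture against IL-1β with the replicate block (adjusted p = 0.045), without co-culture replicate 3 (adjusted p = 0.016) and without IL-1β replicate 2 (adjusted p = 0.044). Ccnd1, the cyclin D1 gene, averaged 141 ± 0.9 FPKM in co-culture, 132 ± 0.62 FPKM with IL-1β and 129 ± 0.89 FPKM in control, and its difference from IL-1β was lost after median-of-ratios scaling (adjusted p = 0.51).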
